A study of Homo sapiens with 6 samples.

Results

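The zinc finger genes of chromosome 19 described here are the protein-coding genes of GENCODE release 44 on that chromosome whose symbol is ZNF followed by a number and at most 1 letter. There were 246 such genes among 20046 protein-coding genes, and 262 genes with symbols of the same form lay on other chromosomes. A gene was assigned every cluster of crosslinked reads sharing 1 nt or more with its exons on the strand of the gene. In at least 1 of the 5 IGF2BP3 libraries, 109 of the 246 genes had a cluster. The translated coding sequence of every one of the 246 genes held at least 1 C2H2 finger pattern, with a median of 12 fingers.

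C2H2 zinc finger proteins carry rows of short modules in which 2 cysteines and 2 histidines hold a zinc ion, and the modules in a row contact DNA one after the other. Many of them open with a KRAB domain, which recruits TRIM28 and, through it, the histone methyltransferase SETDB1 to silence transposable elements and other loci. The genes arose by repeated duplication and stand in dense clusters on chromosome 19, so that neighbours share long stretches of sequence. IGF2BP3 is an RNA-binding protein of fetal tissues and many tumors that binds mRNAs mainly in their 3′UTRs, often at sites with the letters CAU.

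The series is an IR-PAR-CLIP experiment, in which proteins are crosslinked to RNA that has incorporated 4-thiouridine, the fragments are ligated to an infrared adapter, and crosslinked uridines are read as T-to-C conversions. All 6 libraries came from HCT116 colorectal carcinoma cells that conditionally express Tet-OsTIR1 and had received 100 µM 4-thiouridine for 15 h. Endogenous IGF2BP3 was precipitated in 5 libraries, after RNase I at 0.05/0.05, 0.1/0.025 or 0.05/0.025 U/µL or after RNase T1 at 1/1 or 0.25/0.25 U/µL (in-lysate/on-beads), and IgG was used in 1 library with RNase I at 0.1/0.025 U/µL. The concentrations are those of the labels, and 1 passage of the study writes a lower in-lysate value for RNase I 0.1/0.025. Each condition was 1 library, so no difference between conditions has a replicate check and none was tested. By the methods, the antibody also recognized some IGF2BP2, and the RNase I 0.05/0.05 and RNase T1 1/1 libraries were electroeluted while the other IGF2BP3 libraries were recovered from crushed gel, so that gel extraction and RNase concentration cannot be told apart.

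The IGF2BP3 libraries held between 182448 and 2362467 reads in clusters, and CPM below means reads per 1000000 of these cluster reads. Of 8 markers of colorectal epithelium 6 had a cluster, among them EPCAM and KRT8, whereas CEACAM5 and VIL1 had none, and none of 6 markers of blood, endothelium, stroma and liver had one. The IgG library held 324 cluster reads and no cluster on the 246 genes. A count of 0 among 324 reads allows a share of up to 0.926%, and the 246 genes took between 0.424% and 0.712% of the cluster reads in the IGF2BP3 libraries, so that a share of the same size was not detectable in IgG at this depth. No RNA-seq was analysed here, so more binding per transcript and more transcripts cannot be told apart.

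The bound stretches of 6 of the 12 genes with the highest mean CPM are shown first. Each is the most read RNase T1 1/1 cluster of at most 30 nt that lay in the 3′UTR and had more than 0.5 conversion events per read. They are written as DNA from GRCh38, 5′ to 3′ on the strand of the gene, with every CAT (CAU in the RNA) in capitals.
ZNF121: ccttcagttatcccCATtcacttcg
ZNF562: gaattatttcccaatatttCATag
ZNF791: gactCATaaatacttaaCATtttg
ZNF264: gttaatatttcttCATtttattttaaag
ZNF8: tCATtatcaCATctaaacag
ZNF460: gaacactacaacttattcaaatg
The first lies at chr19:9565799-9565823 on the minus strand, the next at chr19:9648926-9648949 on the minus strand, and that of ZNF791 at chr19:12631161-12631184 on the plus strand. Those of ZNF264, ZNF8 and ZNF460 lie on the plus strand at chr19:57216601-57216628, chr19:58298695-58298714 and chr19:57293703-57293725. The stretch of ZNF121 had 14 reads, while the most read cluster of that gene in the same library, which was longer than 30 nt, had 371. The stretch of ZNF791 had 44 reads and 0.727 conversion events per read, and that of ZNF460, which holds no CAU, had 28 reads and 0.786 conversion events per read. Of the stretches that met the rule and are not shown, those of ZNF561 and ZNF805 hold no CAU, and those of ZNF587 and ZNF468 hold it. All 6 end in G, after which RNase T1 cuts.

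Coding stretches of 3 genes are shown because the letters CAU there are also a histidine codon when they fall in frame.
ZNF146: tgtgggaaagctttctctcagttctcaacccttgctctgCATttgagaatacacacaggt
ZNF557: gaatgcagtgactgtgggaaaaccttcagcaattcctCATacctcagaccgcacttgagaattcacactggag
ZNF160: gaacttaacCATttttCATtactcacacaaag
The ZNF146 stretch (chr19:36237173-36237232, plus strand, RNase I 0.1/0.025) held 54 nt of a zinc finger and 6 nt of a linker, and its CAU was in frame. The ZNF557 stretch (chr19:7083160-7083232, plus strand, RNase I 0.05/0.05) held 63 nt of a finger and 10 nt of a linker, and its CAU was out of frame. The ZNF160 stretch (chr19:53069794-53069825, minus strand, RNase T1 1/1) lay outside the finger pattern.

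Fewer of the chromosome 19 zinc finger genes carried a cluster than of all protein-coding genes in each of the 5 libraries. With RNase I 0.05/0.05, 97 of the 246 genes had a cluster (39.4%, Wilson 95% interval 33.5 to 45.7%), where the share of all protein-coding genes was 43.7%. With RNase I 0.1/0.025 there were 58 (23.6%, against 32%), and with RNase I 0.05/0.025 there were 53 (21.5%, against 30.3%). RNase T1 1/1 gave 86 (34.96%, against 37.6%) and RNase T1 0.25/0.25 gave 23 (9.35%, against 16.7%). The interval of the zinc finger genes included the share of all genes in the electroeluted libraries and lay below it in the other 3 libraries. These intervals cover counting error only. Over the 5 libraries together, 109 genes (44.3%) had a cluster, beside 46.7% of all protein-coding genes and 60.7% of the ZNF genes of other chromosomes. The other genes of chromosome 19 were lower than all genes too, with 39.6% over the 5 libraries and, per library, 38.1%, 23.7% and 23.3% with RNase I and 26.7% and 10.2% with RNase T1.

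Targets were fewer as well. The rule of the methods was read here as at least 1 cluster above 10 CPM in which T-to-C conversions exceed 0.5 per read. CPM was taken over cluster reads. Of all protein-coding genes, 4389 were targets with RNase I 0.05/0.05, 3939 with RNase T1 1/1 and 2737 with RNase T1 0.25/0.25. The study reports lower approximate totals for both enzymes, and similar totals for its RNase T1 conditions. The calls here therefore do not reproduce those of the study. With RNase I 0.05/0.05, 27 genes were targets (10.98%, interval 7.65 to 15.5%) beside 21.9% of all protein-coding genes. RNase I 0.1/0.025 gave 31 targets (12.6%) beside 21.3%, and RNase I 0.05/0.025 also gave 31 (12.6%) beside 22%. RNase T1 1/1 gave 34 targets (13.8%) beside 19.6%, and RNase T1 0.25/0.25 gave 17 (6.91%) beside 13.7%. In all 5 libraries the interval of the zinc finger genes lay below the share of all genes. ZNF genes of other chromosomes had more targets in each library, from 13.7% with RNase T1 0.25/0.25 to 22.1% with RNase T1 1/1. Other genes of chromosome 19 were also below all genes in each library, with 16.3%, 15.4% and 15.9% targets with RNase I and 11.4% and 8.21% with RNase T1, and with RNase T1 1/1 they were below the zinc finger genes. Cut at 10 CPM, a call needs more reads in a deep library than in a shallow one. The cut was 23.6 reads with RNase I 0.05/0.05 and 1.82 reads with RNase T1 0.25/0.25, where the smallest cluster had 2 reads. With RNase T1 0.25/0.25 it therefore removed no cluster, and only the conversion limit applied. At equal depth (182448 reads drawn per library, mean of 20 draws) between 23 and 62.8 of the 246 genes still had a cluster of at least 2 reads (9.35% to 25.5%), beside 16.7% to 29.7% of all protein-coding genes.

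**Figure D1:**
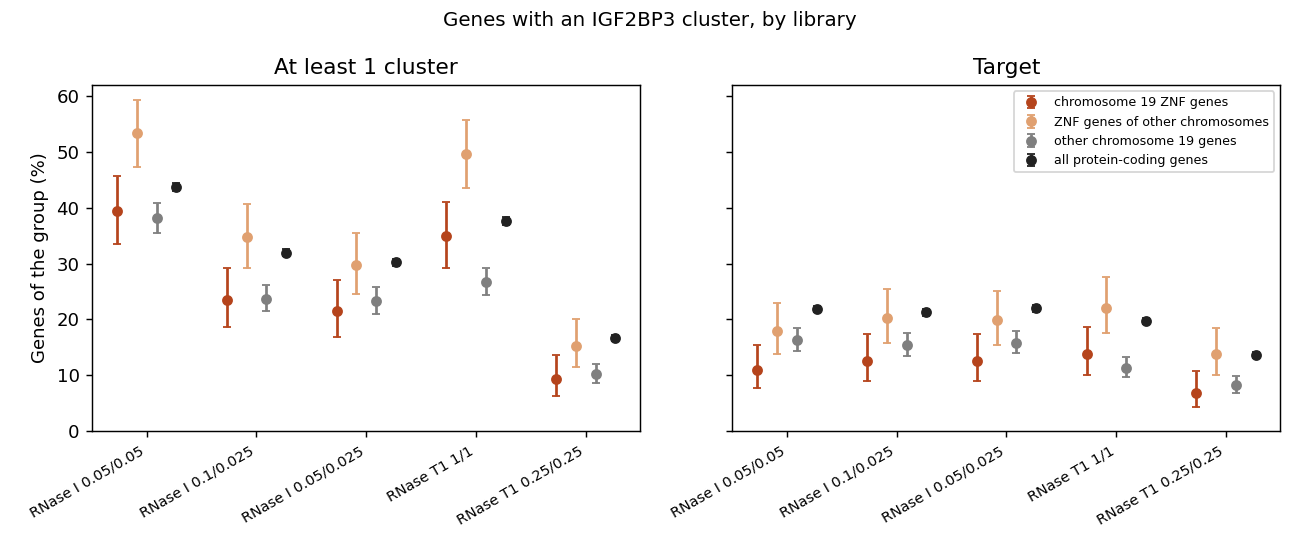
Share of genes (%) with at least 1 cluster (left) and called as targets (right) in each IGF2BP3 library, for the 246 chromosome 19 ZNF genes and 3 other gene groups; points are shares and bars Wilson 95% intervals. The chromosome 19 ZNF genes lie below all protein-coding genes in both panels in every library, and with RNase I 0.05/0.05 their target share is 10.98% beside 21.9%.

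A set of 51 zinc finger genes (20.7%, beside 29.5% of all protein-coding genes) were targets in at least 1 library, and 12 (4.88%, beside 9.91%) were targets in all 5. Among the other genes of chromosome 19 these shares were 21.1% and 6.02%. The 12 were ZNF317, ZNF121, ZNF561, ZNF562, ZNF791, ZNF146, ZNF468, ZNF264, ZNF460, ZNF587, ZNF417 and ZNF8. A further 16 were targets in a single library, for which the share of all protein-coding genes was not computed.

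Longer 3′UTRs went with more clusters. The median 3′UTR, summed over all transcripts of a gene, was 3642 nt in the 109 genes with a cluster and 2123 nt in the 137 genes without. Among the 61 genes with the shortest 3′UTRs (up to 1310 nt) 9.84% were targets, beside 16.9% of all protein-coding genes in that length range. Among the 62 with the longest (from 4482 nt) 35.5% were targets, beside 44.9%. The zinc finger genes had fewer targets than all genes of like 3′UTR length in each of 4 length ranges, and so did the other genes of chromosome 19, which had 14.8% in the shortest range and 39.7% in the longest. A KRAB-like pattern was found ahead of the fingers in 207 of the 246 genes, and 44.4% of these had a cluster (interval 37.8 to 51.3%), beside 43.6% of the other 39 (interval 29.3 to 59.0%).

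Binding was concentrated in a few genes. ZNF121, which codes for a protein of 9 fingers in which no KRAB pattern was found, had 1215, 1370 and 1094 CPM in the RNase I libraries at 0.05/0.05, 0.1/0.025 and 0.05/0.025, and 1835 and 1798 CPM in the RNase T1 libraries at 1/1 and 0.25/0.25. It was higher in both RNase T1 libraries than in any RNase I library, and it ranked 47 by mean CPM among the 9353 genes with a cluster. It alone took between 21.2% and 42.4% of the cluster reads of the 246 genes. Per kilobase of exon its mean was 202 CPM, where the other genes of the 12 with the highest mean CPM lay between 14.01 and 54.3 CPM per kilobase.

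ZNF562 had 370, 439 and 315 CPM in the RNase I libraries (in the order given for ZNF121) and 485 and 460 CPM in the RNase T1 libraries. ZNF561, its neighbour, had 370, 404 and 330 CPM with RNase I and 334 and 274 CPM with RNase T1. ZNF317, a KRAB zinc finger gene at lower coordinates than both, had 236, 329 and 322 CPM with RNase I and 254 and 164 CPM with RNase T1. All 3 were targets in every IGF2BP3 library. Of the 12 genes, ZNF805 varied most, from 32.9 CPM with RNase T1 0.25/0.25, where it had 6 reads, to 244 CPM with RNase T1 1/1.

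ZNF146 is 1 of the 39 genes in which no KRAB pattern was found, and its coding sequence of 879 nt holds 10 fingers. It had 167, 169 and 118 CPM with RNase I and 282 and 137 CPM with RNase T1. ZNF587 had 199, 210 and 188 CPM with RNase I and 271 and 175 CPM with RNase T1, and ZNF791 had 159, 223 and 167 CPM with RNase I and 204 and 285 CPM with RNase T1. The remaining genes of the 12, ZNF264, ZNF460, ZNF8, ZNF468 and ZNF805, had mean values between 142 and 198 CPM. Together the 12 took between 64.8% and 88.0% of the cluster reads of the 246 genes.

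**Figure D2:**
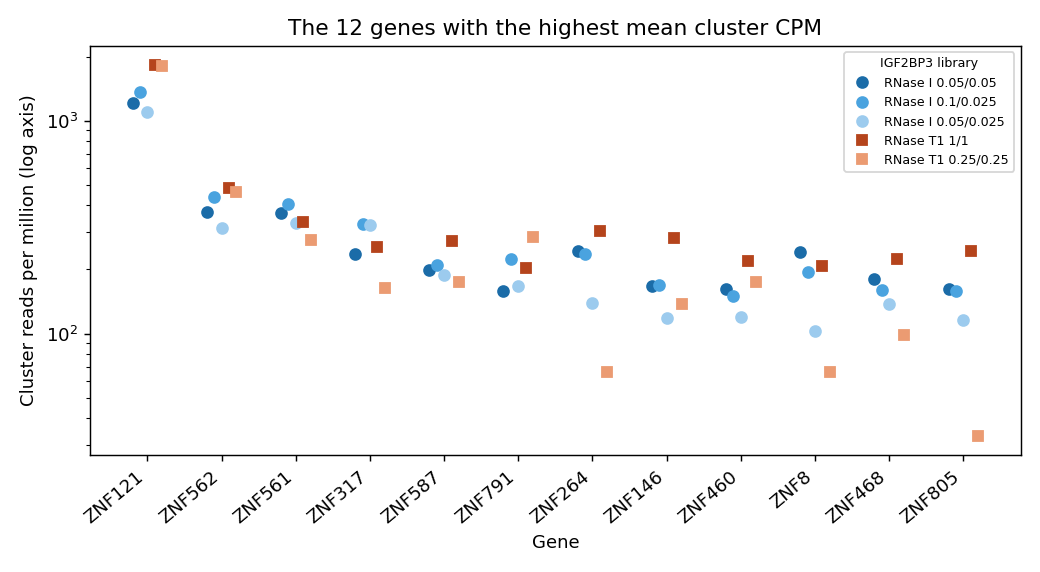
Cluster CPM (log axis) of the 12 chromosome 19 ZNF genes with the highest mean, with 1 point per IGF2BP3 library (circles RNase I, squares RNase T1). ZNF121 lies above all others in every library, between 1094 and 1835 CPM.

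The clusters of ZNF121 were spread over much of its 3′UTR. The gene is on the minus strand at chr19:9560329-9584504, and its 3′UTR has 5611 nt. Clusters covered 70.2% of it in the RNase I 0.05/0.05 library, 54.1% at 0.1/0.025 and 40.6% at 0.05/0.025, whereas RNase T1 clusters covered 38.4% at 1/1 and 21.3% at 0.25/0.25. The cluster reads of the gene differed too, at 2870, 1101, 734, 2123 and 328 in the same order. Over the 5 libraries 76.4% of the 3′UTR was under a cluster of at least 1 library, and 800 nt were under a cluster in all 5. The most read cluster of each library lay in the same stretch: it ran from 1007 to 1540 nt behind the end of the coding sequence with RNase I 0.05/0.05 (718 reads), from 1046 to 1545 nt with RNase I 0.1/0.025 (314 reads), from 1080 to 1484 nt with RNase I 0.05/0.025 (214 reads), from 1243 to 1467 nt with RNase T1 1/1 (371 reads) and from 1376 to 1459 nt with RNase T1 0.25/0.25 (55 reads). RNase T1 clusters were shorter there, as they were over the 246 genes, where the median cluster was 52 nt with RNase I 0.05/0.05 and 33 nt with RNase T1 1/1. Of the nucleotides under RNase T1 1/1 clusters in this 3′UTR, 93.3% were also under an RNase I 0.05/0.05 cluster. In the other direction the share was 51.0%.

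**Figure D3:**
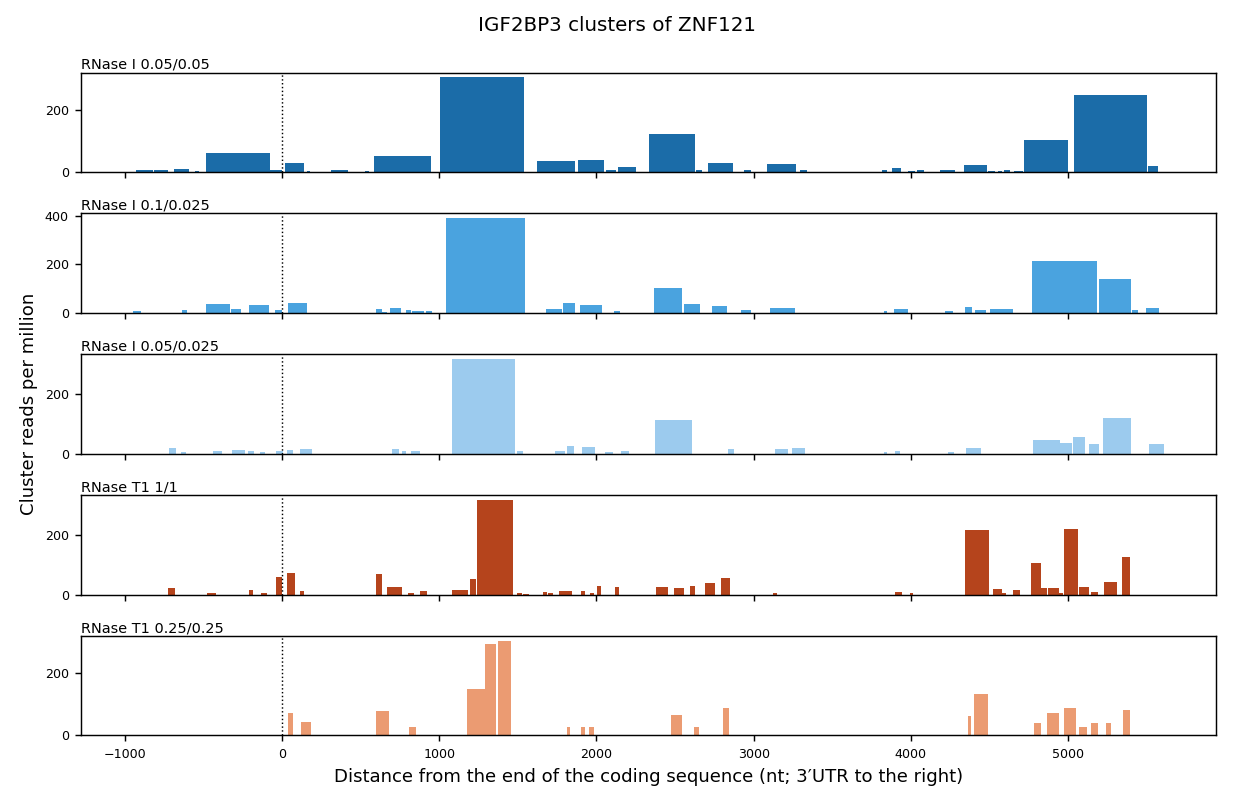
Clusters of ZNF121 in the 5 IGF2BP3 libraries, with height in CPM and width to scale, against the distance from the end of the coding sequence in nt (dotted line at 0). The most read cluster of each library lies between 1007 and 1545 nt, and a further group of clusters lies near the far end of the 3′UTR.

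The cluster reads were unevenly spread along the chromosome. With genes less than 1000000 nt apart placed in the same neighbourhood, the 246 genes formed 16 neighbourhoods. The one at chr19:7069703-9793180, which holds ZNF121, ZNF561, ZNF562, ZNF317 and ZNF557, had a cluster on 12 of its 15 genes (interval 54.8 to 93.0%) and 8 targets, and it took 50.1% of the summed mean CPM. The neighbourhood at chr19:51571283-53580269, with ZNF468, ZNF160 and ZNF845, had a cluster on 27 of 39 genes (69.2%, interval 53.6 to 81.4%) and 12 targets. The one at chr19:55476617-58481230, with ZNF264, ZNF460, ZNF805, ZNF587 and ZNF8, had a cluster on 24 of 59 genes and 11 targets. In contrast, the neighbourhood at chr19:19668796-24129968, with ZNF90, had a cluster on 10 of 37 genes (27.0%, interval 15.4 to 43.0%) and 3 targets. Its genes also shared the most sequence: a median of 49.2% of the 25-nt words of their coding sequence had a second copy in the genome. The medians of the other neighbourhoods, in the order given, were 8.44%, 22.1% and 8.72%. Whether shared sequence bears on the cluster counts was not tested.

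**Figure D4:**
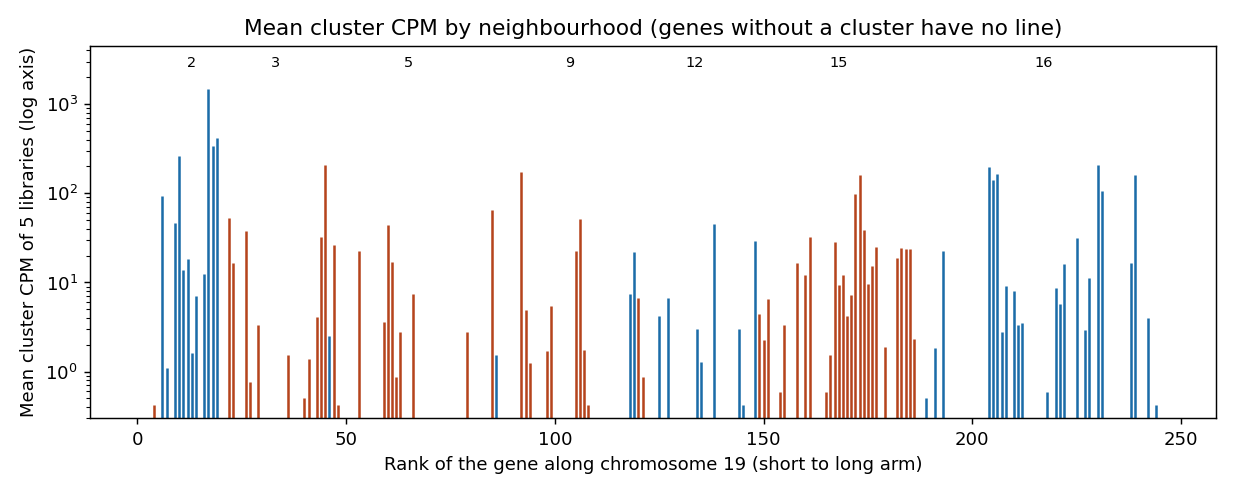
Mean cluster CPM over 5 IGF2BP3 libraries (log axis) of each chromosome 19 ZNF gene in its order along the chromosome; line colours alternate between neighbourhoods, and those of 15 or more genes are numbered. The tallest line is ZNF121, at 1462 CPM, and genes without a cluster have no line.

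With clusters that overlap both parts counted as 3′UTR, the 246 genes had more of their reads in 3′UTR clusters than other genes. Clusters that overlapped a 3′UTR held 93.2% of the reads of the 246 genes with RNase I 0.05/0.05, 93.8% with both other RNase I concentrations, 94.0% with RNase T1 1/1 and 100% with RNase T1 0.25/0.25. Coding clusters held 6.60% after RNase I at 0.05/0.05 (interval 6.19 to 7.03%), 5.97% at 0.1/0.025 and 5.92% at 0.05/0.025, and 5.45% after RNase T1 at 1/1. Over all protein-coding genes coding clusters held 12.96%, 11.3%, 12.3% and 8.29% in the same libraries, and over ZNF genes of other chromosomes 18.2%, 17.5%, 19.3% and 11.6%. With RNase T1 0.25/0.25 the 246 genes had no coding cluster among 774 reads, where all genes had 7.64%. The coding shares changed little without ZNF121, to 6.47%, 5.23%, 5.43% and 5.19%. The 3′UTRs were those of all transcripts, so clusters that overlap both parts include coding sequence that is 3′UTR in another transcript. The share depended on the rule for these clusters: counting them as coding raised the reads outside the 3′UTR from 6.80% to 16.4% with RNase I 0.05/0.05. On canonical transcripts it was 11.6%. These alternatives were computed for the 246 genes only, so the comparison with other genes is limited to the first rule.

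By the first rule 44 of the genes had a coding cluster in the 5 libraries, with 1762 reads in all. Clusters on coding sequence that is 3′UTR in another transcript are left out of these counts. Of the 1762 reads ZNF121 held 478, ZNF557 held 168, ZNF146 held 125, ZNF160 held 120 and ZNF227 held 104, which was 56.5% together. In ZNF227 and ZNF160 the coding reads were the larger part, 104 of 206 and 120 of 188 reads of the gene. Both are KRAB zinc finger genes, with 18 and 20 fingers.

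Fingers made up more of the coding sequence under clusters than of the whole coding sequence of the 44 genes with a coding cluster. Only clusters counted as coding by the first rule were used here. Zinc fingers, counted from the first cysteine to the last histidine, made up 44.8% of the coding sequence of the 44 genes, and they made up 56.4% of the coding nucleotides under clusters after RNase I at 0.05/0.05, 74.95% at 0.1/0.025 and 69.4% at 0.05/0.025, and 54.1% after RNase T1 at 1/1. The linkers between fingers made up 12.7% of the coding sequence and between 1.58% and 9.92% of the covered nucleotides. In the same libraries the covered nucleotides came from 35, 11, 10 and 25 genes, whereas the shares of the coding sequence are over all 44. The gene sets therefore differ, and the part of this in the pattern was not tested. Fingers had 26.8% U and linkers 15.1%, and only uridines can carry the crosslink; the part of base content in the pattern was not tested. Without ZNF121 the finger share was 46.7% with RNase T1 1/1, close to the 44.8% of the sequence itself, and between 56.0% and 74.5% with RNase I.

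The letters CAU were common in these genes. In the coding sequence of the 246 genes CAU stood 21.8 times per kilobase, beside 15.3 times over all protein-coding genes, and 61.5% of its occurrences were in frame and so coded histidine, beside 24.4% over all genes. In the 3′UTR it stood 19.6 times per kilobase, beside 16.9 times. Of the coding clusters of the 246 genes with RNase I 0.05/0.05, 82.8% held CAU (interval 73.9 to 89.1%), beside 69.9% of those of all genes, and of the 3′UTR clusters 81.8% did, beside 73.8%. With RNase T1 1/1 the shares were 78.0% (interval 63.3 to 88.0%) and 75.2%, beside 66.9% and 65.9%. The coding share was 81.5% with RNase I 0.1/0.025 (63.3 to 91.8%, beside 72.4%) and 82.6% at 0.05/0.025 (62.9 to 93.0%, beside 70.4%). Only the RNase I 0.05/0.05 coding interval lay above the share of all genes. ZNF genes of other chromosomes had 72.5% and 75.6% with RNase I 0.05/0.05. In 3′UTR clusters they exceeded the 246 genes with RNase I 0.05/0.025 (80.5% beside 80.0%) and RNase T1 0.25/0.25 (82.0% beside 74.6%) only. Of the 170 CAUs in coding clusters of the 246 genes with RNase I 0.05/0.05, 61.8% were in frame, which is near the 61.5% of the coding sequence as a whole. The motif was searched on the strand of the gene only, and its higher share in clusters stood beside its higher share in the sequence.

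Between the enzymes, most of the genes differed little. Of the 57 genes with at least 50 reads over the 5 libraries, 12 (21.1%) had more than 2 times the mean CPM with RNase I than with RNase T1, at a pseudocount of 1 CPM, beside 26.3% of all 6261 such genes. In the other direction there were 2 (3.51%, beside 10.5%), ZNF426 and ZNF780A. The median log2 ratio of RNase I over RNase T1 was 0.12 for the 57 genes and 0.20 for all. Other genes of chromosome 19 had a median of 0.96. Their 3′UTRs held 25.5% G beside 20.3% in the zinc finger genes, and whether G content bears on the ratio was not tested. Between the 2 electroeluted libraries 9 of the 57 genes (15.8%, beside 22.7% of all) were past 2 times, and between the crushed-gel libraries 35 (61.4%, beside 51.9%), where RNase T1 0.25/0.25 was the shallowest library and many of the genes had no cluster.

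ZNF90 stood farthest toward RNase I. It had 112, 17 and 29 reads with RNase I (47.4, 21.2 and 43.2 CPM) and none with RNase T1, and 22 of its 158 reads were in clusters with a second exact copy in the genome. ZNF845, a gene of 26 fingers, had 28.8, 23.7 and 34.3 CPM with RNase I, 7.78 CPM with RNase T1 1/1 and no cluster with RNase T1 0.25/0.25 (log2 ratio 2.61). ZNF544 and ZNF823 had log2 ratios of 2.27 and 2.15. Toward RNase T1, ZNF426 had 58 reads with RNase T1 1/1 and 15, 4 and 0 reads with RNase I (log2 ratio -2.45), and ZNF780A had 84 reads against 43, 10 and 5 (log2 ratio -1.44). Both had no cluster with RNase T1 0.25/0.25, so that their ratios rest on 1 library. The filter of 50 reads was summed over libraries of unequal depth. ZNF90, ZNF845, ZNF544 and ZNF823 passed it through their RNase I reads, and ZNF426 through its RNase T1 1/1 reads. The ratios of these genes therefore describe the reads only and are no support for a difference between the enzymes.

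**Figure D5:**
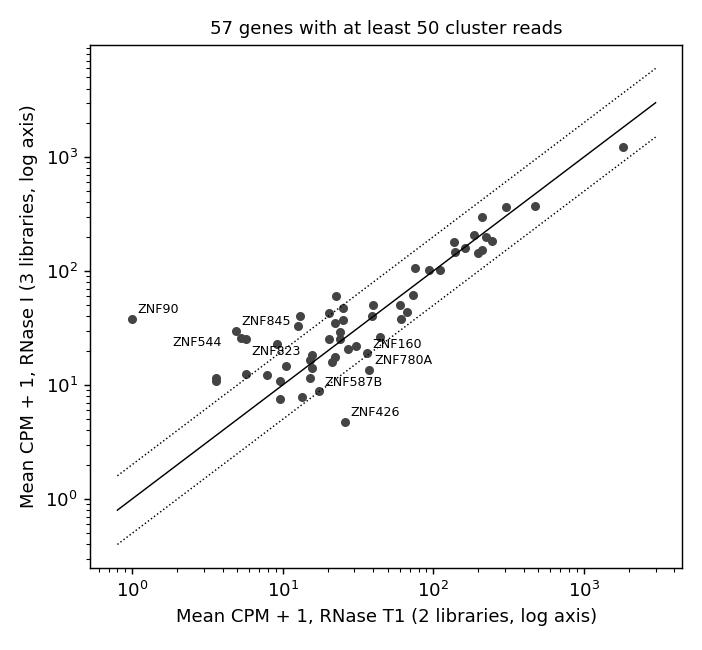
Mean CPM plus 1 with RNase I (3 libraries) against RNase T1 (2 libraries) on log axes for the 57 chromosome 19 ZNF genes with at least 50 cluster reads, with the line of equality and dotted lines at 2-fold either way. The 8 genes with the highest and lowest ratios are named, and 12 lie above and 2 below the dotted lines.

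Shared sequence among these genes limits the assignment of some reads. Of the 25-nt words in their canonical coding sequence 24.5% had a second copy in the genome, and 24.3% of those in their 3′UTRs. For ZNF genes of other chromosomes these shares were 9.27% and 13.5%. Counts of called clusters cannot show sites that repeated sequence left without a cluster. Whether this bears on the cluster, target and coding shares above was not tested. Of the clusters of the 246 genes with RNase I 0.05/0.05, 6.98% (52 of 745, interval 5.36 to 9.04%) had a second exact copy of their whole sequence in the genome, beside 3.43% for ZNF genes of other chromosomes and 2.03% for other genes of chromosome 19. With RNase T1 1/1 the order was the other way round, at 4.66% (22 of 472) beside 6.15% for ZNF genes of other chromosomes. With RNase I 0.05/0.05 the first 25 nt of the cluster had a second copy in 17.99%, and the read share of these was not computed. Clusters with a second copy of their whole sequence held 2.59% of the reads with RNase I 0.05/0.05 and 8.01% with RNase T1 0.25/0.25. ZNF417 and ZNF587, a pair of neighbours, shared the most: 260 of 583 reads of ZNF417 and 198 of 1112 reads of ZNF587 lay in clusters with a second copy. A 27-nt RNase T1 1/1 cluster of ZNF417 shows this.
ZNF417 and ZNF587: gttatccacttCATgtggaatCATaag
It lies at chr19:57908192-57908218 on the minus strand with 24 reads, its copy in ZNF587 lies on the plus strand, and clusters of the same library at that copy held 25 reads. ZNF562 had 175 reads in such clusters. Without clusters that have a second copy, 10 genes in place of 12 were targets in all 5 libraries, and the 2 that dropped out were ZNF562 and ZNF417.

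Of 18 genes of the KRAB co-repressor machinery 17 had a cluster, 13 were targets in at least 1 library and 3 in all 5, while EHMT2 had no cluster. The shares of all protein-coding genes were 46.7%, 29.5% and 9.91%. CBX5, which codes for heterochromatin protein 1 alpha, had 1416, 1572 and 1422 CPM with RNase I and 1575 and 1118 CPM with RNase T1. CBX3, its gamma relative, had 551, 887 and 1084 CPM with RNase I and 562 and 1836 CPM with RNase T1. CBX1 had a mean of 184 CPM. TRIM28, which KRAB domains bind directly, had 157, 144 and 119 CPM with RNase I and 97.7 and 203 CPM with RNase T1. SETDB1, the methyltransferase itself, had 4 reads in the RNase I 0.05/0.05 library, 6 in the RNase T1 1/1 library and none in the other 3.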

How the data were processed

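IR-PAR-CLIP clusters of IGF2BP3 and IgG in HCT116 cells were analysed, with 1 library per condition. Per the submitters' processing notes and the methods, the authors extracted molecular identifiers and removed duplicates with UMI-tools 1.1.1, used Trimmomatic 0.30 for trimming and Bowtie 0.12.7 for alignment to GRCh38 and called clusters in each library with PARalyzer. How reads with several alignments were treated is not given in the sources used here. The deposited values used were, for each cluster, the count of reads and the counts of converted and unconverted positions, as raw counts that the authors had not normalized; the deposited mode score was not used.

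CPM was computed over the summed cluster reads of a library, which are not its library size. Genes, exons and 3′UTRs came from GENCODE release 44. All 244645 cluster sequences were identical to GRCh38 at their coordinates. A cluster overlapping several parts of a gene was assigned to 3′UTR, then coding sequence, then 5′UTR. Fingers were counted in the translated canonical transcript with a cysteine-histidine pattern, linkers as at most 10 residues between them, and the KRAB domain by a letter pattern, so both are descriptions of letters. Exact copies were searched on both strands of the main chromosomes. The scripts were tested on simulated data. Intervals came from scipy 1.17.1, tables from pandas 2.3.3 and numpy 2.4.6, and plots from matplotlib 3.10.9, all under Python 3.11.15. Wilson 95% intervals and floors of 3 counts cover counting error only.

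The genes and lists were chosen with earlier results of these data known. Named genes were the 12 with the highest mean CPM, the 4 highest and 4 lowest enzyme ratios among genes of at least 50 reads, the 5 with the most coding reads, the 3 with the most reads in clusters with a second copy, any gene with an IgG cluster (there was none), and the 4 KRAB co-repressor genes with the highest mean CPM; SETDB1 and EHMT2 were named after their values were seen. The finger, neighbourhood, length and base content descriptions and the values without ZNF121 were added after seeing the data. So was the conversion limit for the 3′UTR stretches shown: without it some of the most read stretches had few conversions, and the 6 printed are a choice among those that met it. Alternatives changed the exon overlap, shared and repeated clusters, the target criterion, the depth, the order of gene parts, the pseudocount, the read filter and the motif window.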

Additional observations from a re-analysis of the deposited data

How the results depend on the processing

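Of the counts and shares recomputed, the number of the 246 genes with a cluster stayed within 1.5 times of 109 under every alternative, with 79.95 on average at equal depth as the lowest. The number of targets in at least 1 library, 51, was 83 above 5 CPM, 30 above 20 CPM and 29 above 0.75 conversion events per read. The 12 targets in all 5 libraries were 2 with at least 20 reads in place of CPM, which few clusters of the shallowest library reach, and 2 above 0.75 conversion events per read. With conversion events divided by all events at uridines, a ratio that also counts every unconverted uridine of a read, both counts were 0. Reads outside 3′UTR clusters, 6.80% with RNase I 0.05/0.05, were 16.4% with coding sequence assigned first, 11.6% on canonical transcripts, 12.9% with clusters in place of reads and 6.34% without second-copy clusters. The 12 genes past 2 times with RNase I were 35 in the crushed-gel libraries, 23 without the read filter and 3 at 200 reads or more. Coding clusters with CAU, 82.8%, were 47.3% in the 30 nt around the deposited mode. Clusters with a second copy, 6.98%, were 17.99% by their first 25 nt and 2.59% weighted by reads. The causes were not tested. No paired analysis was possible because each condition was 1 library and the labels give no replicate numbers.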

Other observations

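Along the 3′UTRs, clusters of the 246 genes lay at a median of 0.39 to 0.45 of the length of the canonical 3′UTR over the 5 libraries, where 0 is the end of the coding sequence, beside 0.40 to 0.43 for all protein-coding genes. In nucleotides the median distance from the end of the coding sequence was 1284 nt with RNase I 0.05/0.05 and 1785 nt with RNase T1 1/1, beside 1060 and 1097 nt for all genes. The tetramer CAUA was in 34.2% of the clusters of the zinc finger genes with RNase I 0.05/0.05, beside 23.4% of those of all genes. ZNF genes of other chromosomes had 26.9%. With RNase T1 they had more than the 246 genes, at 28.3% beside 25.0% (1/1) and 31.7% beside 26.8% (0.25/0.25). CAUA stood 4.70 times per kilobase in the 3′UTRs of the 246 genes, beside 3.38 times for all genes. CAGU was in 35.3% of the clusters of the 246 genes with RNase I 0.05/0.05 and in 8.90% with RNase T1 1/1, beside 34.9% and 11.8% for all genes.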
